A study of Mus musculus with 12 samples.

Results

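Gonads of XX embryos that lack Cbx2 were compared with gonads of XX wild-type embryos at E11.5, a day of embryonic development at which the mouse gonad has formed but has only begun to take an ovarian or testicular path. The comparison uses 6 of the 12 arrays of the series, 3 labelled Cbx2 knockout XX (KO) and 3 labelled wild type XX (WT), chosen by their titles and genotype entries (their source entry gives KO XX for WT samples too), and all 18193 genes that a probe set names alone. The remaining 6 arrays, 3 KO and 3 WT, came from XY embryos. They take no part in the differences in XX but were in the fit that gave each gene's spread, standard error and call. Each array held RNA of gonadal cells captured by laser from 30 µm frozen sections, with GATA4 staining and tissue form as the guide, and pooled from 2 or 3 embryos. KO embryos were bred from heterozygous parents and staged by counting tail somites. The labels give no strain and no treatment, and do not say which part of Cbx2 the allele lacks. Whether WT pools held littermates of the KO embryos is not given either. Each array is 1 pool, so p-values below rest on the spread between pools and not between embryos.

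Cbx2 is a chromobox protein of Polycomb repressive complex 1 (PRC1), which binds histone H3 methylated at lysine 27 by Polycomb repressive complex 2 (PRC2) and keeps developmental genes such as the Hox clusters silent. The gonad arises as a thickening of the coelomic epithelium on the mesonephros, and needs transcription factors such as GATA4, WT1, LHX9, EMX2 and SF1 (encoded by Nr5a1) to grow and to make its steroidogenic and supporting cells. In XX embryos the supporting cells become pre-granulosa cells, under RUNX1, FOXL2 and WNT signals, in place of Sertoli cells.

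Signals are given on the authors' log2 scale and differences as KO minus WT, ± standard error (SE) from limma, so a difference of 1 is a 2-fold change. A gene was called when its Benjamini-Hochberg adjusted p over all 18193 genes was under 0.05. The labels were checked first. Cbx2 itself was at 9.28, 9.27 and 9.48 in KO and 8.77, 8.46 and 8.57 in WT. It was higher in every KO pool than in every WT pool, by 0.74 ± 0.12 (adjusted p = 0.000645), and a second, dimmer Cbx2 probe set was not called. These probe sets may lie outside the deleted part, so they do not test the genotype, and KO and WT below name pools by their labels, on which every direction rests. Xist, the noncoding RNA expressed from an inactive X, was at 12.65, 12.88 and 12.86 in KO and 12.55, 12.75 and 12.63 in WT, with overlapping groups, and the Y-linked gene Eif2s3y stayed between 3.12 and 3.73 in all 6. Of the 6 gonad markers Gata4, Wt1, Nr5a1, Lhx9, Emx2 and Nr0b1, 4 were called lower, as described below, and the lowest KO signal was 5.68, that of Nr0b1, against array medians of 5.88 to 5.94.

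A pair of arrays stood apart within their groups. WT replicate 1 correlated at 0.9877 and 0.9878 with the other WT arrays across genes, against 0.9947 between those, and limma's array weights gave it 0.303, the lowest of the 12. KO replicate 1 carried signal of liver genes. Afp, the fetal serum protein of liver, was at 11.41 there and at 5.49 to 6.26 in the other 5 XX arrays, Alb (albumin) at 9.33 against 4.98 to 5.95, and Fgb (fibrinogen) at 6.33 against 4.28 to 4.45. Some counts below are therefore also given with 1 XX array left out. Calls near the threshold were lost with any array left out. Leaving out 1 of the 6 XX arrays cost 436 to 715 of the 2493 calls below, 592 for WT replicate 1, and 588 of those 592 were also lost without at least 1 other XX array.

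In the KO pools 1510 genes were called higher and 983 lower, 2493 in all. These are 8.3%, 5.4% and 13.7% of the genes tested. Counts of list members called higher or lower below are to be read against the 8.3% and 5.4%. Changes of at least 2-fold were nearly balanced, with 319 genes higher and 300 lower, but the larger ones were more often losses: 72 genes were called lower by at least 4-fold and 25 higher, and 17 lower by at least 8-fold and 1 higher. Complete separation of the 3 KO from the 3 WT pools occurred for 4841 genes (26.6%). The median difference over all genes was -0.02, and 47.1% of genes lay above 0. Without WT replicate 1 there were 1337 higher and 905 lower calls, and 1901 genes were called both ways, all in the same direction. Without KO replicate 1 there were 1176 and 826. The balance of gains and losses moved with the processing: 1224 higher and 1170 lower after a further quantile normalization, 1287 and 1053 when a gene's probe sets were averaged, and 2040 and 1135 with the Gapdh 3' minus 5' difference as a covariate.

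The largest loss was that of Akr1cl, an aldo-keto reductase of the family that handles steroids. Its signal was 5.96, 6.07 and 6.50 in KO and 11.52, 10.64 and 10.27 in WT. That is a difference of -4.64 ± 0.24, or 24.9-fold (adjusted p = 3.29e-08), with no overlap between the groups. Next came Aldh1a1 (-4.49 ± 0.29) and the follistatin gene Fst (-4.28 ± 0.29), described with their pathways below. Sphkap, an anchoring protein for protein kinase A, was at 4.18, 4.50 and 4.35 in KO and 8.91, 8.67 and 7.99 in WT. Nrn1 (neuritin), a small membrane-anchored neuronal protein, was at 4.90, 5.09 and 5.11 in KO and 9.15, 9.18 and 9.07 in WT, and its difference of -4.10 ± 0.13 had the smallest adjusted p of all genes tested (2.74e-10). The KO and WT values of Nrn1 lie far apart and close together within each group. Others among the 20 largest losses were Gbp2b, an interferon-inducible GTPase (-3.58 ± 0.28), Tph2, a tryptophan hydroxylase of serotonin synthesis (-3.53 ± 0.24), Cpa1, a carboxypeptidase (-3.46 ± 0.29), Vav3, a guanine nucleotide exchange factor (-3.35 ± 0.27), Sybu (-3.32 ± 0.17), Pnliprp2, a lipase (-3.13 ± 0.21), Kctd14 (-3.10 ± 0.17), Pkp2, a plakophilin of desmosomes (-2.91 ± 0.28), and Sel1l3 (-2.91 ± 0.18). For every gene among these 20 the 3 KO pools lay below the 3 WT pools, since that was a condition for naming it.

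Among the 20 largest gains, Lrrtm4, a synaptic leucine-rich repeat protein, rose the most. It was at 8.48, 7.75 and 7.46 in KO and 4.49, 5.03 and 4.21 in WT, a difference of 3.32 ± 0.24 (adjusted p = 7.49e-07). The matrix protein gene Ecm1 followed at 2.88 ± 0.16, the cytokine Il33 at 2.77 ± 0.27 and the keratin Krt19 at 2.71 ± 0.14. Ppargc1a, a coactivator of mitochondrial genes, was at 8.54, 7.94 and 8.23 in KO and 5.76, 5.85 and 5.12 in WT, and Ptger4, a receptor for prostaglandin E, at 12.56, 12.71 and 12.53 in KO and 10.05, 10.13 and 10.69 in WT. As with the losses, a gene entered this list only if every KO pool lay above every WT pool. Sema3d, Tgm2, Id4, Negr1 and Bmper are taken up with their families, and S100a6 (2.25 ± 0.26), Kcnt2 (2.13 ± 0.27), Olfm4 (2.10 ± 0.33), Clstn2 (2.10 ± 0.27), Edil3 (2.09 ± 0.23), Arhgap20 (2.07 ± 0.30) and Asic2 (2.04 ± 0.18) complete the named part of that list with Adamtsl4 and Ngp.

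Upstream sequences are shown for 4 genes to place the changes beside the DNA in front of them: the fallen Msx1, Amhr2 and Gadd45g and the risen Ecm1. They are the 250 bases before the annotated start of each gene, from RefSeq on GRCm38.p6, in the direction of the gene. Capitals mark a match to CAAGGTCA or CAAGGCCA, sequences of the kind that SF1 binds as a monomer, in either orientation, or to TATAAA, the core of a TATA box. A window was printed only if it held the marked match, so these 4 do not show how common a match is among changed genes. Msx1, Gadd45g and Ecm1 come from the lists below, and Amhr2, which encodes the receptor of anti-Müllerian hormone, was chosen after its values were seen. Its signal was 10.77, 10.93 and 11.48 in KO and 12.89, 12.23 and 12.12 in WT, a difference of -1.35 ± 0.21 (adjusted p = 0.000563) with no overlap between the groups.

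Msx1, chr5:37824586-37824835, minus strand, the reverse complement of CAAGGCCA beginning 37 bases before the start: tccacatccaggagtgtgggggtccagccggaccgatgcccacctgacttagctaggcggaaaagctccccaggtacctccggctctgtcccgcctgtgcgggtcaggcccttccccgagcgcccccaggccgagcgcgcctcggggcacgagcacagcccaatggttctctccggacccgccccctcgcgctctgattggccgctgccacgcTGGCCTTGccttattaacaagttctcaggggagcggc

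Amhr2, chr15:102445117-102445366, plus strand, CAAGGTCA beginning 232 bases before the start: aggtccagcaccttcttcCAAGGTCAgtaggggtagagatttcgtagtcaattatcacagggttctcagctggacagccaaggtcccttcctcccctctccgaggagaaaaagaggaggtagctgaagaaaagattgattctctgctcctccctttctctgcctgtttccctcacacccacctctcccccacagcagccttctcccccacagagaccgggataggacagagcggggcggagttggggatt

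Gadd45g, chr13:51846425-51846674, plus strand, TATAAA beginning 27 bases before the start: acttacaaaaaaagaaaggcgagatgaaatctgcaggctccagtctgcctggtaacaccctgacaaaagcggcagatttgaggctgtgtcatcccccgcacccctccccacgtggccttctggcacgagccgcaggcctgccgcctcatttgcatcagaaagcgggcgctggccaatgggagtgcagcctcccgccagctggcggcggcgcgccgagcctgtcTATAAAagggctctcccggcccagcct

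Ecm1, chr3:95739570-95739819, minus strand, TATAAA beginning 27 bases before the start: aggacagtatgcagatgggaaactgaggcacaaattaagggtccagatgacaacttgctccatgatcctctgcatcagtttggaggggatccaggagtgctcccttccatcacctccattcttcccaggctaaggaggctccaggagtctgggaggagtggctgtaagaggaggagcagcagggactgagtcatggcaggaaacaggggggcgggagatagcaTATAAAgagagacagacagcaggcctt

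Of the tested genes 14452 had such a window, 18109 windows in all. Either SF1-type sequence was in 2.83% of these windows, in 3.87% of the 284 windows of genes called lower by at least 2-fold and in 1.95% of the 308 windows of genes called higher by at least 2-fold. TATAAA was in 8.81%, 14.1% and 11.7%, and AGATAA, the core of a GATA site, in 7.4%, 9.51% and 5.19%. Over all 32851 windows of the table the shares were 3.28% for the SF1-type sequences, 12.4% for TATAAA and 9.99% for AGATAA. Both strands were searched, and matches of different motifs may overlap. A match describes the letters in this window and was not tested as a site.

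The transcription factors of the genital ridge split into losses and gains. Of 13 measured, 4 were called lower and 4 higher (30.8% each way, against 5.4% and 8.3% of all genes). The nuclear receptor gene Nr5a1, which drives steroidogenic genes and gonad growth, was at 7.83, 7.76 and 8.33 in KO and 10.29, 9.87 and 9.87 in WT. It fell by 2.04 ± 0.16 (4.1-fold, adjusted p = 1.72e-06). Nr0b1, which encodes the SF1 partner DAX1, was at 5.89, 5.68 and 6.69 in KO and 8.63, 7.73 and 7.80 in WT, a difference of -1.97 ± 0.25. Gata4, whose protein guided the laser capture, was at 7.42, 7.35 and 7.72 in KO and 9.29, 8.61 and 8.82 in WT, a difference of -1.41 ± 0.16 (adjusted p = 4.23e-05). The LIM homeobox gene Lhx9 fell by 0.96 ± 0.17, from 12.70, 12.45 and 12.41 in WT to 11.14, 11.68 and 11.87 in KO. In all 4 genes every KO pool lay below every WT pool, and all 4 calls held without WT replicate 1 and without KO replicate 1.

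Other ridge factors were not called lower. Wt1 was at 10.84, 10.83 and 11.10 in KO and 11.10, 11.02 and 11.04 in WT and Emx2 at 10.69, 10.97 and 11.16 in KO and 10.97, 11.30 and 11.28 in WT; neither was called (adjusted p = 0.465 and 0.298), and their groups overlapped. Calls in the other direction went to Tcf21 (1.07 ± 0.17), a basic helix-loop-helix factor of mesenchyme, Osr1 (0.82 ± 0.14), an early factor of intermediate mesoderm, Zfpm2 (0.52 ± 0.15), the GATA4 cofactor also called FOG2, and Gata6 (0.43 ± 0.13). These 4 gains became 2 without KO replicate 3, WT replicate 2 or WT replicate 3. The calls for Zfpm2 and Gata6, both under 1.5-fold, were lost when the 6 XX arrays were fitted alone.

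**Figure D1:**
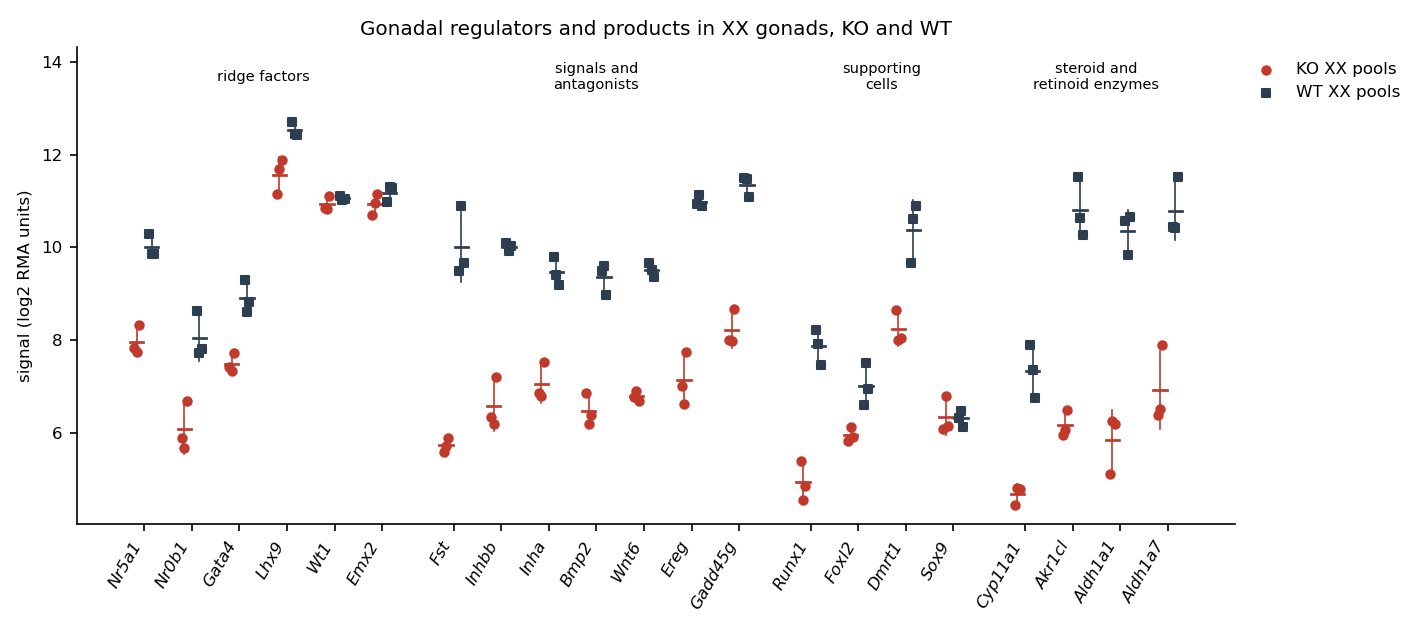
Signal of gonadal transcription factors, signals, supporting-cell genes and enzymes in each XX array (log2 RMA units). Points are pools, horizontal ticks are means and vertical lines are standard deviations (n = 3 per group). KO and WT pools separate for each gene shown except Wt1, Emx2 and Sox9.

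The stress-response gene Gadd45g, which activates the p38 kinase branch that acts before sex determination, was at 8.01, 7.98 and 8.68 in KO and 11.49, 11.48 and 11.08 in WT. It fell by 3.13 ± 0.18 (8.74-fold, adjusted p = 5.93e-08), the largest change among the 13 measured genes of ridge signalling. The only other loss in that list was Numb (-0.61 ± 0.13), an adaptor that limits Notch signalling, and Map2k6 (0.49 ± 0.13), Insr (0.89 ± 0.18) and Igf1r (0.89 ± 0.14) were higher. Insr and Igf1r encode the insulin and IGF receptors, and neither was called when its probe sets were averaged (limma, adjusted p = 0.0852 and 0.0741). Map2k6 lost its call without WT replicate 1 (adjusted p = 0.0695).

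Genes that mark the ovarian supporting lineage were mostly lower in KO. Of 22 measured, 12 were called lower (54.5%) and 2 higher, with a median difference of -0.57. The list also fell in XY gonads, where 10 of these 22 were called lower and 1 higher, with a median difference of -0.30. Fst and Runx1, for example, differed there by -3.35 and -2.68. Fst, the follistatin that binds activin and is made by the XX gonad, was at 5.60, 5.71 and 5.90 in KO and 9.50, 10.89 and 9.67 in WT. All KO values lie below 6 and all WT values above 9, and the difference of -4.28 ± 0.29 is 19.4-fold (adjusted p = 3.72e-07). Runx1, a transcription factor of early pre-granulosa cells, was at 5.40, 4.55 and 4.86 in KO and 8.22, 7.93 and 7.47 in WT, a difference of -2.94 ± 0.24. Foxl2, the transcription factor that maintains granulosa cells, fell by 1.06 ± 0.18, from 6.60, 7.51 and 6.95 in WT to 5.82, 6.13 and 5.92 in KO. Also called lower were Sprr2d (-3.23 ± 0.32), a small proline-rich protein gene, the homeobox gene Msx1 (-2.58 ± 0.20), the R-spondin receptor gene Lgr5 (-2.24 ± 0.21), Lypd6 (-1.43 ± 0.18), the homeobox gene Irx3 (-1.24 ± 0.25), Lef1 (-0.65 ± 0.11), a transcription factor of WNT signalling, Zbtb7c (-0.62 ± 0.17) and Wnt4 (-0.53 ± 0.15). Bmp2 belongs here too and is described with its family. Wnt4, the WNT ligand required for ovarian development, was the smallest of these losses, at 10.22, 10.19 and 10.62 in KO and 10.77, 11.18 and 10.66 in WT; its lowest WT and highest KO value nearly touch, and the call was lost without KO replicate 1. The 2 gains were Fzd1 (0.72 ± 0.13) and Lgr6 (0.74 ± 0.11). Without WT replicate 1 the count of losses was 11, and without KO replicate 1 it was 10; Zbtb7c lost its call either way (adjusted p = 0.091 without the WT array).

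Several genes known from Sertoli cells were also lower in the XX KO pools. Of 20 measured, 7 were called lower (35.0%) and 1 higher. Dmrt1, a transcription factor expressed in both sexes before it becomes restricted to the testis, was at 8.65, 8.0 and 8.04 in KO and 9.65, 10.60 and 10.89 in WT, a difference of -2.15 ± 0.28 (adjusted p = 0.000101). Cbln4, a secreted cerebellin, was at 5.39, 5.37 and 5.82 in KO and 8.38, 7.03 and 7.68 in WT, a difference of -2.17 ± 0.25. The cystatin-related Cst9 (-1.80 ± 0.35), the pantetheinase gene Vnn1 (-1.19 ± 0.20), Cbln1 (-1.11 ± 0.26) and Mro (-0.52 ± 0.12) were called lower as well; Inha follows with the activins. Sox9, the factor that directs Sertoli cell fate, was at 6.09, 6.79 and 6.15 in KO and 6.32, 6.48 and 6.14 in WT, with overlapping groups and a difference of 0.03 ± 0.18 (adjusted p = 0.937). Fgf9, a growth factor that promotes testis fate, was called higher (1.26 ± 0.36), but WT replicate 2 at 7.77 lies within the KO range, and the call was lost without WT replicate 1 (adjusted p = 0.0846).

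The activin antagonist gene Fst, described above, fell, and so did 2 of the inhibin and activin subunit genes. Inhbb, the beta B subunit shared by activin B and inhibin B, was at 6.35, 6.20 and 7.21 in KO and 10.09, 9.92 and 10.02 in WT. It fell by 3.42 ± 0.23 (10.7-fold, adjusted p = 2.71e-07). Inha, the inhibin alpha subunit, was at 6.87, 6.79 and 7.54 in KO and 9.80, 9.40 and 9.20 in WT, a difference of -2.40 ± 0.20. With Fst and Lefty2 (-0.91 ± 0.19), an antagonist of nodal signalling, these made 4 losses among 15 measured ligands and antagonists. Fstl1 (0.65 ± 0.13), a follistatin-like protein, and Tgfbr3 (0.75 ± 0.14), the co-receptor betaglycan that binds inhibin, were called higher. The subunit Inhba was not called (-0.05 ± 0.14, adjusted p = 0.871). In the list of TGF-beta ligands, receptors, Smads and latency proteins none of 18 was called lower and 6 were called higher: Tgfb3 (1.65 ± 0.15), Ltbp1 (0.99 ± 0.13), Ltbp3 (0.83 ± 0.16), Acvr1 (0.88 ± 0.13), Smad4 (0.54 ± 0.15) and Tgfbr1 (0.46 ± 0.11). Smad4 lost its call without WT replicate 1 (adjusted p = 0.0837). Tgfb3, a ligand, was at 8.90, 8.40 and 8.55 in KO and 6.99, 6.71 and 7.20 in WT, and Ltbp1 and Ltbp3 encode proteins that store latent TGF-beta in the matrix.

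BMP ligands changed in both directions. Bmp2, a ligand of the early ovary, was at 6.87, 6.19 and 6.38 in KO and 9.50, 9.59 and 8.98 in WT, a difference of -2.87 ± 0.18 (7.32-fold, adjusted p = 2.05e-07), and Bmp7 fell by 0.69 ± 0.11. Bmp6 was at 8.30, 7.99 and 7.78 in KO and 6.36, 6.65 and 6.29 in WT, a rise of 1.59 ± 0.16, and Bmp4 was at 8.69, 8.96 and 9.17 in KO and 7.75, 7.34 and 7.77 in WT, a rise of 1.32 ± 0.15. For Bmp2, Bmp4 and Bmp6 no KO value entered the WT range. Gdf10 (1.42 ± 0.32) and Bmp5 (1.23 ± 0.39), both BMP-family ligands, brought the count to 4 higher and 2 lower of 9 measured. Bmp5 was at 10.56, 10.63 and 9.78 in KO and 7.98, 9.41 and 9.89 in WT, with overlapping groups and an adjusted p just under the threshold, and lost the call without WT replicate 1 (0.151).

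Among receptors, antagonists and target genes of BMP, 8 of 21 were called higher and 3 lower. Id4, an inhibitor of helix-loop-helix factors that BMP induces, was at 10.98, 11.11 and 10.59 in KO and 7.68, 9.11 and 8.60 in WT, a rise of 2.43 ± 0.29. Id2 rose by 1.08 ± 0.13 and Id3 by 0.79 ± 0.11. Bmper, a secreted BMP-binding protein, was at 10.56, 10.74 and 10.40 in KO and 8.40, 8.62 and 8.48 in WT, a rise of 2.07 ± 0.12 (adjusted p = 1.25e-07). The other gains were Twsg1 (1.0 ± 0.15), Smad5 (0.73 ± 0.14), Smad6 (0.65 ± 0.17) and Bmpr1a (0.41 ± 0.12). Smad6 and Bmpr1a lost their calls without KO replicate 1, KO replicate 3 or WT replicate 2, where 6 gains were called. Twsg1, Smad5 and Bmpr1a were not called when their probe sets were averaged (limma, adjusted p = 0.101, 0.198 and 0.119). A dimmer probe set of Twsg1 was called lower, so its probe sets disagree. Msx1, itself a BMP target, went the other way at 6.28, 6.65 and 6.98 in KO and 9.56, 8.91 and 9.19 in WT, as did the matrix-bound antagonists Smoc1 (-1.77 ± 0.20) and Smoc2 (-0.55 ± 0.16). Smoc2 lost its call without WT replicate 1 (adjusted p = 0.0508).

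Wnt6, a ligand of epithelia, had the smallest adjusted p of the WNT ligands (5.67e-09). It was at 6.77, 6.91 and 6.69 in KO and 9.66, 9.52 and 9.36 in WT, a difference of -2.72 ± 0.11, or 6.59-fold. The groups were far apart relative to the spread within each. Wnt10a fell by 0.68 ± 0.14, and with Wnt4 made 3 losses of 22 ligands. The gains were Rspo3 (1.50 ± 0.20), an R-spondin that raises WNT receptor levels, Wnt5a (0.92 ± 0.12) and Wnt11 (0.77 ± 0.13), both ligands of the planar polarity branch, and Wnt5b (0.66 ± 0.14). Receptors and secreted inhibitors moved mostly up, 14 of 29 called higher and 1, Lgr5, lower, against 8.3% and 5.4% over all genes. Ror1, a tyrosine kinase receptor for WNT5A, was at 9.86, 9.78 and 9.79 in KO and 8.46, 8.33 and 8.26 in WT, a rise of 1.46 ± 0.11. The frizzled receptors Fzd7 (1.33 ± 0.12) and Fzd4 (1.02 ± 0.20) rose, as did the secreted inhibitors Sfrp1 (1.32 ± 0.10), Sfrp2 (1.27 ± 0.17) and Dkk3 (0.91 ± 0.13). Dkk2 was called higher (1.54 ± 0.40) but not without WT replicate 1 (adjusted p = 0.062), and the count of gains was 12 without that array. Within the cell, Lef1 was lower and Tcf7l1 (1.18 ± 0.34) and the inhibitor Nkd1 (0.77 ± 0.13) were called higher, while the feedback gene Axin2 was not called (-0.02 ± 0.14). Tcf7l1 lost its call without WT replicate 1 (adjusted p = 0.0983).

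In the list of EGF ligands and receptors the ligand genes Ereg and Tgfa fell and the receptor gene Egfr rose. Ereg, encoding epiregulin, was at 7.02, 6.63 and 7.75 in KO and 10.94, 11.13 and 10.90 in WT, a difference of -3.85 ± 0.23 (14.4-fold, adjusted p = 9.79e-08). Tgfa was at 5.88, 6.23 and 6.13 in KO and 7.99, 7.70 and 7.30 in WT, a difference of -1.58 ± 0.17. Egfr was at 8.08, 7.51 and 7.24 in KO and 6.35, 6.35 and 6.48 in WT, a rise of 1.21 ± 0.18. Of 6 dimmer Egfr probe sets 1 was called higher too and 5 were not called, and Egfr was not called when its probe sets were averaged (adjusted p = 0.116). None of the 3 genes had overlapping groups. With Nrg3 (-0.42 ± 0.13) and the receptor inhibitor Errfi1 (0.41 ± 0.12), which each lost the call without WT replicate 1, the list had 2 gains and 3 losses of 15 measured.

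FGF receptor and feedback genes had 5 gains and no loss of 17: Flrt2 (1.36 ± 0.19), Flrt3 (0.82 ± 0.18), Fgfr1 (0.77 ± 0.13), Fgfr3 (0.75 ± 0.11) and Spry1 (0.74 ± 0.13). Hedgehog and PDGF genes had 5 gains and 2 losses of 19. The ligand gene Pdgfd was at 9.21, 9.20 and 9.37 in KO and 8.03, 7.55 and 7.55 in WT, a rise of 1.55 ± 0.15, and the receptor gene Pdgfra of mesenchyme rose by 0.67 ± 0.10. The hedgehog-pathway genes Gas1 (0.81 ± 0.12), Gli3 (0.65 ± 0.13) and Gli2 (0.61 ± 0.10) were also higher, and the ligands Pdgfb (-0.75 ± 0.17) and Pdgfa (-0.64 ± 0.15) were lower. In the insulin and IGF list Igfbp5, an IGF-binding protein, was at 13.24, 13.43 and 13.54 in KO and 11.85, 12.19 and 12.25 in WT, a rise of 1.31 ± 0.13, and Igfbp2 moved against it with a difference of -1.29 ± 0.18. Irs1, the adaptor of both receptors, rose by 0.98 ± 0.12, which made 5 gains and 1 loss of 19 with Insr, Igf1r and Grb10 (0.61 ± 0.15). Notch genes had 3 gains, led by the ligand gene Jag1 at 8.64, 8.58 and 7.88 in KO and 6.50, 7.30 and 6.84 in WT (1.49 ± 0.21), and 4 losses of 21, each loss under 2-fold; without KO replicate 2 there was 1 loss.

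Steroid-forming enzymes were called lower in 4 cases of 14. Cyp11a1, which cleaves the side chain of cholesterol in the first step of steroid synthesis, was at 4.45, 4.83 and 4.81 in KO and 7.89, 7.35 and 6.75 in WT. It fell by 2.64 ± 0.23 (6.22-fold, adjusted p = 3.84e-06). Hsd3b1 (-0.50 ± 0.13) and Cyp17a1 (-0.45 ± 0.11) were called lower by less than 1.5-fold, and Akr1cl is the fourth. The 1 gain was Akr1c14 (0.94 ± 0.23). Without WT replicate 1 there were 6 losses, and without KO replicate 1 there were 2 and no gain. Star, the cholesterol carrier of steroidogenic cells, was not called (6.47, 6.44 and 6.44 in KO and 6.49, 6.50 and 6.49 in WT). The melanocortin receptor gene Mc2r, a mark of the adrenal primordium, went the other way at 9.32, 9.32 and 9.26 in KO and 7.36, 8.30 and 8.47 in WT (1.26 ± 0.27). In cholesterol synthesis Idi1, isopentenyl diphosphate isomerase, was the only call of 19, at 9.85, 9.68 and 10.11 in KO and 11.06, 11.16 and 11.37 in WT, a difference of -1.32 ± 0.12.

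Retinaldehyde dehydrogenases diverged. Aldh1a1 was at 5.12, 6.25 and 6.20 in KO and 10.56, 9.84 and 10.65 in WT, a difference of -4.49 ± 0.29 (22.5-fold, adjusted p = 2.05e-07). Its close relative Aldh1a7 was at 6.39, 6.51 and 7.89 in KO and 10.44, 10.42 and 11.51 in WT, a difference of -3.86 ± 0.37; the sequences of this pair are alike, so their probe sets may share signal. Aldh1a2, the main retinoic acid enzyme of the mesonephros, was at 11.46, 12.15 and 12.02 in KO and 10.87, 10.92 and 11.39 in WT, a rise of 0.82 ± 0.17. Rdh10, which makes retinaldehyde, rose by 0.98 ± 0.19, and the retinoic acid receptor gene Rarb, itself induced by retinoic acid, was at 7.72, 7.77 and 7.94 in KO and 6.64, 6.07 and 6.78 in WT, a rise of 1.31 ± 0.16. The breakdown enzyme gene Cyp26b1 was not called (-0.38 ± 0.13, adjusted p = 0.0841).

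Other PRC1 genes were tested since Cbx2 is a subunit. Of 15 measured core subunits 3 were called higher, Cbx2 itself among them, and none lower. Bmi1, the ring-finger partner also called PCGF4, was at 11.45, 11.52 and 11.63 in KO and 10.54, 9.98 and 10.10 in WT, a rise of 1.33 ± 0.14 (2.51-fold, adjusted p = 1.35e-05). Cbx6 was called at an adjusted p of 0.0492 (0.43 ± 0.14) and lost the call without WT replicate 1 (0.157); without that array Pcgf3 was called instead (0.0231). The catalytic subunits Ring1 (-0.17 ± 0.13) and Rnf2 (0.12 ± 0.14) and the chromobox genes Cbx7 (0.07 ± 0.14) and Cbx8 (0.18 ± 0.11) were not called. In PRC2, Jarid2 (0.50 ± 0.10) and Ezh1 (0.41 ± 0.13) were called higher, and the core genes Ezh2 (0.46 ± 0.16, adjusted p = 0.075), Eed (0.05 ± 0.13) and Suz12 (0.0 ± 0.15) were not. Ezh1 lost its call without WT replicate 1 (adjusted p = 0.132). Among the accessory PRC1 genes Scml2 (0.68 ± 0.13) and Yaf2 (0.42 ± 0.11) were called higher and Scmh1 lower (-0.52 ± 0.13). Smarca2, an ATPase of the opposing SWI/SNF remodellers, rose by 1.20 ± 0.19.

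Hox genes, the textbook targets of Polycomb repression, were called in the upward direction only. Of 33 measured, 12 were called higher (36.4%, against 8.3% of all genes) and none lower (against 5.4%), with a median difference of 0.21. The HoxC cluster had 5 of 7 called, or 3 without KO replicate 2 and 2 when the XX arrays were fitted alone, and all Hox genes together had 8 in that fit. Hoxc5 was at 9.25, 9.58 and 9.75 in KO and 8.57, 8.30 and 8.12 in WT, a rise of 1.19 ± 0.18 (adjusted p = 0.000321), with separate groups. Hoxc10 was at 8.79, 10.14 and 9.19 in KO and 6.80, 8.32 and 8.38 in WT, a rise of 1.54 ± 0.38. Hoxa9 was at 13.02, 13.18 and 12.76 in KO and 10.63, 11.95 and 12.42 in WT, a rise of 1.32 ± 0.31. WT replicate 1 was the lowest WT array for both. The other calls were Hoxc4 (0.90 ± 0.26), Hoxc8 (0.88 ± 0.21), Hoxc9 (0.55 ± 0.13), Hoxa2 (1.17 ± 0.20), Hoxa5 (0.94 ± 0.21), Hoxa10 (1.22 ± 0.33), Hoxb3 (0.78 ± 0.14), Hoxd1 (0.68 ± 0.15) and Hoxd3 (1.10 ± 0.23). HoxB had 1 call of 9. Without WT replicate 1 there were 10 gains, as Hoxc4 and Hoxa10 lost theirs.

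Genes for the Hox cofactors were called higher in 3 of 8 cases. Pbx3 was at 11.60, 12.29 and 12.31 in KO and 10.47, 10.70 and 10.70 in WT, a rise of 1.44 ± 0.16. Meis2 was at 12.97, 13.29 and 13.02 in KO and 11.54, 12.07 and 12.09 in WT, a rise of 1.20 ± 0.16, and Meis1 rose by 1.12 ± 0.12. None of the 8 measured cofactors was called lower. T-box genes gave 3 gains and 2 losses of 15: Tbx18 (1.25 ± 0.19), which marks the coelomic epithelium and ridge mesenchyme, and Tbx3 (1.14 ± 0.17) rose by over 2-fold, and Mga (0.47 ± 0.14) and the lower Tbx1 (-0.54 ± 0.16) and Tbx5 (-0.36 ± 0.10) changed by less than 1.5-fold; Tbx1 and Tbx5 lost their calls without WT replicate 1, and a dimmer probe set of Mga was called lower. Homeobox genes of the Irx, Nkx, Dlx and Prrx families were mostly not called, 2 gains and 1 loss of 31, with Alx1 the largest gain (1.21 ± 0.18). Dach1 (0.87 ± 0.18), Dach2 (0.89 ± 0.22) and Eya4 (1.39 ± 0.33) were higher in the list of Pax, LIM homeobox and related patterning genes, where Lhx9 was the only loss of 30; 3 gains and 1 loss of 30 are near the shares over all genes.

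**Figure D2:**
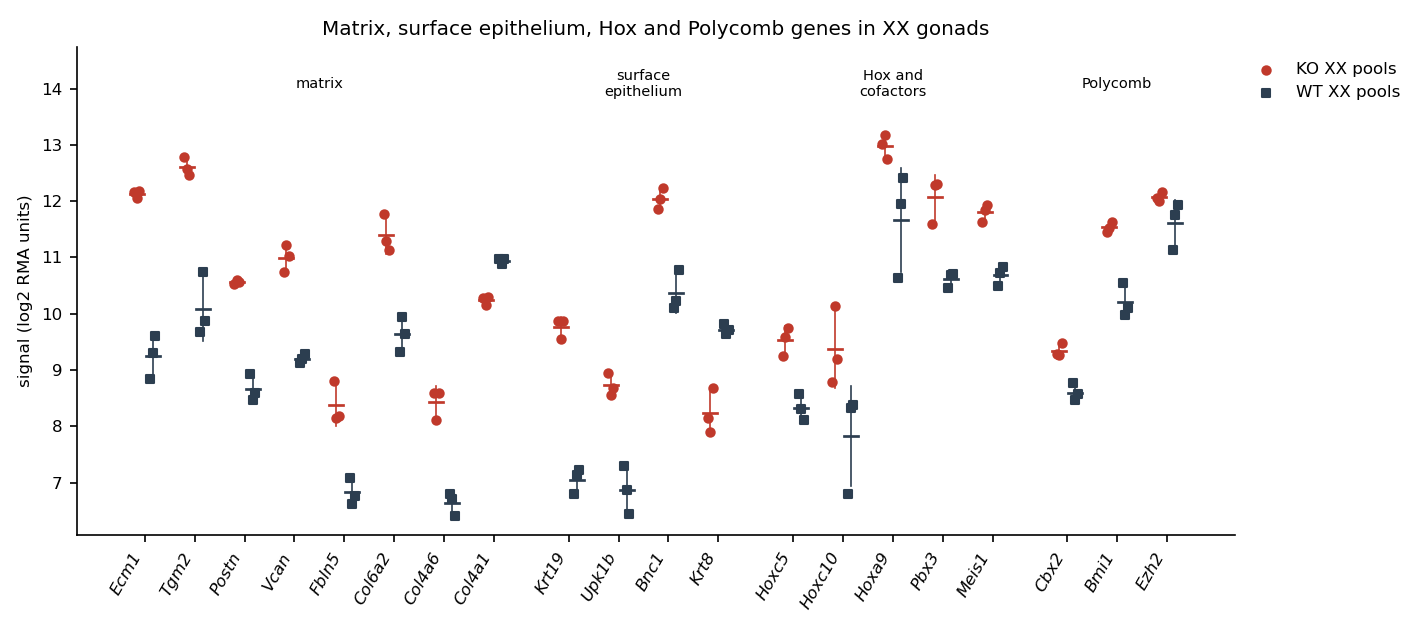
Signal of matrix, surface epithelium, Hox, Hox cofactor and Polycomb genes in each XX array (log2 RMA units; points are pools, ticks means, lines standard deviations, n = 3 per group). The KO pools lie above the WT pools for each gene shown but Col4a1 and Krt8, which lie below.

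Genes of the extracellular matrix had the most gains of the lists ordered by role. Of 32 measured genes of the elastic and interstitial matrix 21 were called higher (65.6%) and 1, Thbs1 (-0.75 ± 0.17), lower, with a median difference of 0.72. Ecm1 was at 12.16, 12.05 and 12.17 in KO and 8.85, 9.31 and 9.60 in WT, a rise of 2.88 ± 0.16 (7.34-fold, adjusted p = 4.52e-08). Tgm2, the transglutaminase that crosslinks matrix, was at 12.79, 12.57 and 12.47 in KO and 9.67, 10.74 and 9.87 in WT, a rise of 2.52 ± 0.23. Postn (periostin) was at 10.52, 10.60 and 10.57 in KO and 8.93, 8.47 and 8.60 in WT, a rise of 1.90 ± 0.16. Versican, from Vcan, rose by 1.79 ± 0.17, and the elastic-fibre genes Fbln2 by 1.59 ± 0.16, Fbln5 by 1.55 ± 0.21, Efemp1 by 1.51 ± 0.21 and Fbn2 by 1.18 ± 0.11. Adamtsl4 rose by 2.10 ± 0.22 and Tnc (tenascin C) by 1.35 ± 0.19. The other gains, each under 2.2-fold, were Dcn, Lum, Adamtsl1, Npnt, Bgn, Spon2, Fn1, Loxl1, Lox, Loxl3 and Fbln1. Without WT replicate 1 the count was 19, as Lum and Lox lost their calls (adjusted p = 0.0539 and 0.0544).

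Collagen genes changed in both directions. Among 42 measured, 17 were called higher and 5 lower (2 lower without KO replicate 2, and 3 without any other XX array but WT replicate 2). The 3 chains of collagen VI, a microfibril collagen of loose connective tissue, rose together: Col6a1 by 1.50 ± 0.13, Col6a2 by 1.77 ± 0.20 and Col6a3 by 1.74 ± 0.19. Fibrillar Col1a1 (1.56 ± 0.34), Col1a2 (1.05 ± 0.14) and Col3a1 (1.15 ± 0.12) rose as well, as did Col8a2 (1.38 ± 0.20). Basement membrane collagen IV did not move as one: Col4a6 was at 8.59, 8.11 and 8.60 in KO and 6.79, 6.71 and 6.41 in WT, a rise of 1.80 ± 0.14, and its partner Col4a5 rose by 1.42 ± 0.14, but Col4a1, the chain of most basement membranes, was at 10.28, 10.16 and 10.30 in KO and 10.97, 10.88 and 10.97 in WT, a difference of -0.70 ± 0.12. Col12a1 had the largest collagen loss (-1.49 ± 0.24). Over the 22 measured basement membrane genes 7 were called higher and 2 lower, the gains including Nid2 (0.79 ± 0.12), Lama2 (0.73 ± 0.17), Agrn (0.64 ± 0.11), Nid1 (0.63 ± 0.13) and Lamb1 (0.63 ± 0.12).

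Proteases of the ADAMTS family moved mostly up, and matrix receptors followed no single direction. Of 20 genes of the ADAMTS family 8 were called higher, Adamts3 (1.42 ± 0.12), Adamts20 (1.36 ± 0.16), Adamts6 (1.27 ± 0.17) and Adamts12 (1.07 ± 0.21) by over 2-fold, and Adamts16 was called lower (-1.68 ± 0.22). Among 29 integrin genes 4 were called higher and 2 lower (13.8% and 6.9%), or 2 to 4 each way with 1 XX array left out. Itga6, the laminin receptor chain, was at 8.62, 7.99 and 8.51 in KO and 10.72, 10.85 and 10.69 in WT, a difference of -2.38 ± 0.15 (5.19-fold, adjusted p = 2.05e-07). Itga8, the receptor chain for nephronectin, rose by 1.08 ± 0.18. The mesenchymal cadherin Cdh11 was at 10.85, 10.66 and 10.60 in KO and 9.62, 9.26 and 9.14 in WT, a rise of 1.36 ± 0.16, Cdh10 rose by 1.12 ± 0.17 and Cdh9 fell by 1.05 ± 0.25. Of 35 protocadherin genes 9 were called higher and 2 lower (none lower without KO replicate 2), with Pcdhb3 (1.62 ± 0.22) and Pcdhb9 (1.61 ± 0.22) of the clustered beta genes the largest gains; clustered protocadherins are alike in sequence, and their probe sets may share signal.

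Guidance molecules changed in both directions. Of 44 semaphorin, plexin, slit and netrin genes 11 were called higher and 3 lower. The secreted semaphorin gene Sema3d was at 9.23, 8.50 and 8.55 in KO and 6.30, 6.61 and 5.79 in WT, a rise of 2.53 ± 0.29, and Sema3a (1.20 ± 0.15) and Sema3c (1.01 ± 0.13) rose too. Sema7a, a membrane-anchored semaphorin, was at 7.09, 6.66 and 6.71 in KO and 8.34, 9.72 and 8.87 in WT, a difference of -2.16 ± 0.28. Plxnd1, a semaphorin receptor of vessels, was at 8.39, 8.26 and 8.37 in KO and 9.90, 9.43 and 9.45 in WT, a difference of -1.25 ± 0.19. The netrin receptor genes Unc5c (1.32 ± 0.13) and Unc5d (1.29 ± 0.31) and the slit genes Slit2 (0.58 ± 0.15) and Slit3 (0.95 ± 0.20) were called higher, Slit2 not without WT replicate 1 (adjusted p = 0.0639). In the list of synaptic and IgLON adhesion genes, 7 of 30 were called higher and 3 lower. Negr1 was at 8.71, 8.03 and 8.28 in KO and 5.24, 6.38 and 6.11 in WT, a rise of 2.43 ± 0.25, and Slitrk1 was at 5.72, 5.08 and 5.61 in KO and 8.46, 8.42 and 7.50 in WT, a difference of -2.66 ± 0.24. With Lrrtm4 and Nrn1 this list held both the largest gain and 1 of the 5 losses of over 16-fold. Ephrin and Eph genes had 4 gains of 20 (2 without KO replicate 1 or KO replicate 2), led by Efna5 (1.06 ± 0.13).

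**Figure D3:**
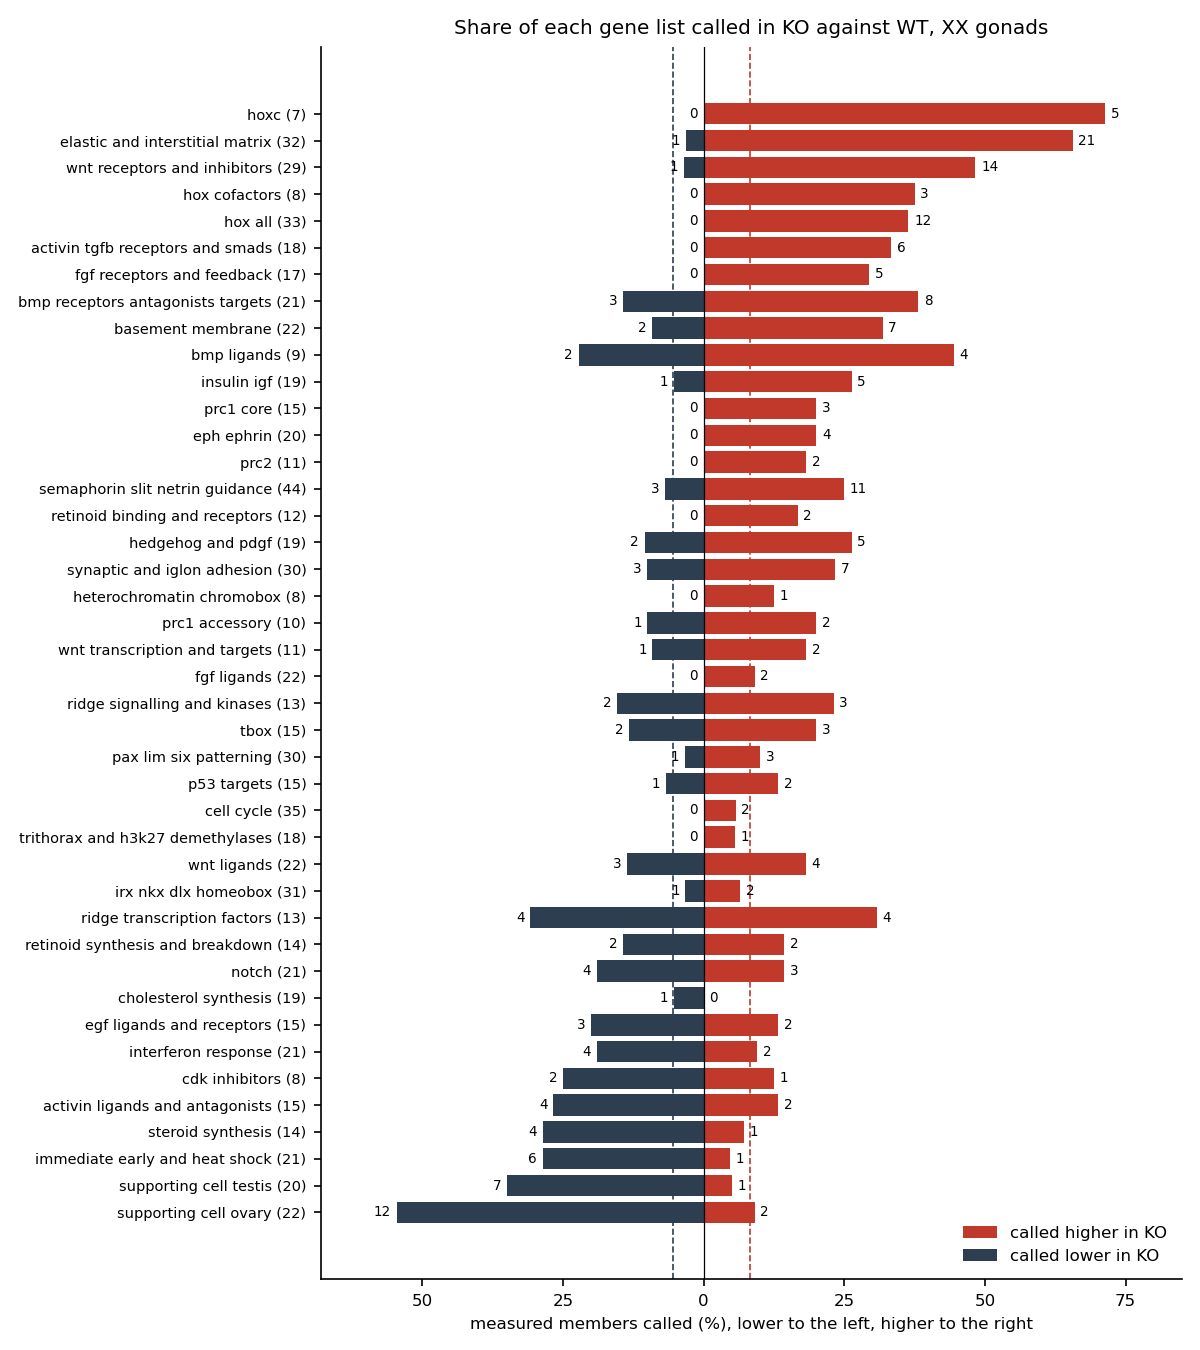
Share of measured members of gene lists ordered by role called higher (red, right) or lower (dark, left) in KO against WT in XX gonads. The number called is beside each bar and the number measured in brackets. Marker lists, the single HoxA, HoxB and HoxD lists and the list of X and Y dosage genes are not shown. HoxA had 4 of 9 called higher, HoxB 1 of 9 and HoxD 2 of 8. Dashed lines mark the shares over all genes, 8.3% higher and 5.4% lower. Of the lists shown, the ovarian supporting-cell list reaches furthest to the left (12 of 22) and the HoxC and interstitial matrix lists furthest to the right (5 of 7 and 21 of 32).

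Of 35 cell cycle genes measured, 2 were called, both higher (5.71%, against 8.3% of all genes): Cdk6 (0.64 ± 0.12) and Ccnd2 (0.35 ± 0.11). Their median difference was 0.08, and Ccnd2 lost its call without WT replicate 1 (adjusted p = 0.122). Of 8 inhibitors of cyclin-dependent kinases 1 was called higher and 2 lower, with 1 lower without KO replicate 2 or WT replicate 2. Cdkn1a, encoding p21, was at 7.73, 7.76 and 8.15 in KO and 9.50, 9.91 and 9.32 in WT, a difference of -1.70 ± 0.16 (3.24-fold, adjusted p = 8.63e-06). Cdkn2c, encoding p18, was at 9.28, 9.08 and 9.22 in KO and 7.59, 7.70 and 7.41 in WT, a rise of 1.63 ± 0.12. Cdkn1c fell by 0.51 ± 0.13, and Cdkn2a, a Polycomb target of cultured cells, was not called (4.38, 4.27 and 4.21 in KO and 3.88, 4.03 and 4.48 in WT; 0.16 ± 0.15). Cdkn1b was not called with all arrays (-0.49 ± 0.21), but was without WT replicate 1 (adjusted p = 0.00182). Among 15 targets of p53, Sesn2 was lower (-0.84 ± 0.15) and Phlda3 (0.43 ± 0.13) and Trp53inp1 (0.47 ± 0.14) were called higher. Both gains lost their calls without WT replicate 1 and without KO replicate 1. The shares of the p53 list, 13.3% higher and 6.67% lower, stand against 8.3% and 5.4% of all genes.

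Immediate-early and heat shock genes, which respond to handling, had 6 losses and 1 gain of 21. Egr1 was at 8.38, 7.69 and 7.44 in KO and 8.51, 9.24 and 8.83 in WT, a difference of -1.02 ± 0.23, and Jun at 10.16, 10.07 and 10.03 in KO and 8.91, 9.35 and 9.29 in WT, a rise of 0.90 ± 0.13. The interferon-inducible genes Gbp2b, at 5.05, 5.22 and 5.85 in KO and 9.13, 8.65 and 9.08 in WT, and Gbp2, at 6.04, 6.01 and 6.16 in KO and 8.93, 8.39 and 7.71 in WT, were both lower (-3.58 ± 0.28 and -2.27 ± 0.24). Guanylate-binding protein genes are alike in sequence and may share signal. The interferon list as a whole had 4 losses, those of Gbp2 and Gbp2b included, and 2 gains of 21. Il15, a cytokine gene, was at 5.39, 5.84 and 6.31 in KO and 8.59, 8.57 and 8.02 in WT, a difference of -2.54 ± 0.21, and Il33, an alarmin of epithelia and stroma, was at 9.90, 10.11 and 9.42 in KO and 6.36, 7.74 and 7.02 in WT, a rise of 2.77 ± 0.27.

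Housekeeping families had few calls. None of 46 cytosolic ribosomal protein genes was called (limma, adjusted p), with 3 at an unadjusted p under 0.05. Of 76 mitochondrial ribosomal protein genes 4 were called lower (5.26%) and none higher. Of 44 complex I genes 3 were called lower (6.82%, with 1 called without KO replicate 1, KO replicate 2 or WT replicate 2) and none higher. Both shares of losses are near the 5.4% of all genes. The 4 mitochondrial ribosome calls became 0 without WT replicate 1 or KO replicate 2, and 8 without WT replicate 3. Most members of both lists lay below 0, as 14 of 76 and 6 of 44 were above it, against 47.1% of all genes. Their median differences were -0.15 and -0.18. Lower calls numbered 9 and 5 after a further quantile normalization and 11 and 6 with the Gapdh covariate. They numbered 2 and 2 with arrays centred on their medians, and 0 and 0 with the XX arrays fitted alone. Among 356 zinc finger genes named Zfp, Zscan or Zkscan 47 were called higher and 7 lower, 13.2% and 1.97% against 8.3% and 5.4% of all genes, and their count of gains fell to 27 when KO replicate 3 was left out. Their median difference was 0.20.

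Marker lists of the cell types near or within the gonad were followed in each array, since a captured pool can hold several of them. In bulk RNA, fewer cells of a type and less RNA per cell cannot be told apart. Mesenchymal genes were higher in KO: 7 of 10 measured were called higher (6 without WT replicate 1, and 6 without KO replicate 1), with a median difference of 1.08, and their summed linear signal was 34880 to 37769 in the KO pools and 15800 to 19922 in the WT pools. Nr2f2, encoding COUP-TFII of interstitial cells, was at 12.30, 11.98 and 11.67 in KO and 10.22, 11.14 and 10.98 in WT, and Col3a1 at 13.65, 13.56 and 13.66 in KO and 12.28, 12.60 and 12.53 in WT. For both genes each KO pool exceeded each WT pool. The matrix and collagen gains above moved with this list, whose members Col1a1, Col3a1 and Dcn are also counted there; the part of the mesenchyme in them was not tested.

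Surface epithelium of the gonad was split. Krt19, a keratin of simple epithelia, was at 9.87, 9.54 and 9.87 in KO and 6.80, 7.14 and 7.23 in WT, a rise of 2.71 ± 0.14 (6.53-fold, adjusted p = 3.29e-08). The mesothelial genes Upk1b (1.86 ± 0.18), Bnc1 (1.68 ± 0.17), Lrrn4 (1.46 ± 0.19), Upk3b (1.08 ± 0.13) and Muc16 (0.93 ± 0.21) rose as well, 6 of 12 in all. Krt8, which pairs with type I keratins in the same epithelia, was at 8.14, 7.90 and 8.68 in KO and 9.82, 9.63 and 9.70 in WT, a difference of -1.48 ± 0.17. The summed signal of the list was 9580 to 11977 in KO and 4521 to 5311 in WT. All 7 calls held without WT replicate 1 and without KO replicate 1.

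Endothelial genes were lower, with 11 of 18 called and none higher. Sox17, a transcription factor of arterial endothelium, was at 8.39, 8.21 and 7.72 in KO and 9.69, 9.70 and 9.26 in WT, a difference of -1.44 ± 0.22. Plvap, a component of endothelial fenestrae, was at 8.54, 8.26 and 7.94 in KO and 9.57, 9.35 and 9.09 in WT, a difference of -1.09 ± 0.22, and Cdh5, the vascular cadherin, at 6.56, 6.0 and 5.92 in KO and 7.31, 7.20 and 6.87 in WT, a difference of -0.97 ± 0.27. KO replicate 1, the array with liver signal, was the highest KO array for each of these 3. The count of losses was 13 without KO replicate 1, 6 without WT replicate 1, 4 without WT replicate 2, and 3 without KO replicate 2 or KO replicate 3. Cdh5 lost its call in each of the latter 4 fits, and Sox17 and Plvap kept theirs in all. The platelet genes Pf4 (-1.22 ± 0.33) and Clec1b (-1.23 ± 0.37) were called lower, but not without WT replicate 1, where the differences were -1.17 and -1.30 (adjusted p = 0.054 and 0.0575), nor without KO replicate 2, KO replicate 3 or WT replicate 2. Cxcr4, the chemokine receptor of endothelium and germ cells, was at 6.14, 5.66 and 5.41 in KO and 6.98, 7.59 and 7.35 in WT, a difference of -1.57 ± 0.20.

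Blood and nerve markers were less even. No erythroid gene of 11 was called (limma, adjusted p; 0 had an unadjusted p under 0.05), and their summed signal was 42200 to 58917 in KO and 48635 to 52495 in WT. Macrophage genes had 3 gains of 15, the complement chains C1qa (0.63 ± 0.18), C1qb (0.86 ± 0.26) and C1qc (0.62 ± 0.17), and KO replicate 1 had the highest summed signal (7544 against 3483 and 4117 in the other KO pools); leaving out 1 XX array at a time gave 0 to 4 gains, with 0 without that pool or WT replicate 3. The neutrophil granule gene Ngp was at 8.85, 9.66 and 7.84 in KO and 6.28, 6.77 and 6.17 in WT, a rise of 2.37 ± 0.46, and S100a9 rose by 1.25 ± 0.31 in a list with 3 gains and 1 loss of 10 (1 gain without KO replicate 2 or WT replicate 3). The neurofilament genes Nefm (10.90, 10.11 and 9.87 in KO and 7.46, 8.94 and 8.47 in WT) and Nefl (9.41, 8.96 and 8.92 in KO and 7.03, 7.85 and 7.19 in WT) were higher in KO, and Stmn2 (0.89 ± 0.28) was called with them, 3 of 9 measured neural genes; Stmn2 was not called without WT replicate 1. Summed neural signal was 1799 to 3084 in KO and 649 to 1104 in WT, while the median difference of the 9 genes was 0.0073. The part that these cells had in other changes was not tested.

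Germ cell genes were present in every array. Of 21 measured, 4 were called higher and none lower. Ddx4 was at 8.37, 7.79 and 8.01 in KO and 7.31, 7.52 and 6.54 in WT (0.94 ± 0.24) and Dazl at 6.55, 6.20 and 6.08 in KO and 5.35, 5.69 and 4.98 in WT (0.94 ± 0.23); both encode RNA-binding proteins that rise as germ cells settle in the gonad. Kit (0.56 ± 0.14) and Prdm14 (0.62 ± 0.17) were the other calls. Summed signal of the list was 11863 to 13904 in KO and 9835 to 13002 in WT, so the groups overlapped (exact permutation test, two-sided p = 0.3, where 0.1 is the smallest that 3 against 3 allows). Leaving out 1 XX array at a time gave 1 to 4 gains, with 1, Kit, without KO replicate 1 and 2 without WT replicate 3. Kit in turn lost its call without KO replicate 2 or WT replicate 2, and when its probe sets were averaged (limma, adjusted p = 0.477). A dimmer Kit probe set had a difference of -0.26 and was not called.

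Mesonephric and adrenal lists were mixed. Calb1 (calbindin), which marks mesonephric tubules, was at 6.63, 6.56 and 7.49 in KO and 9.55, 9.11 and 8.28 in WT, a difference of -2.09 ± 0.28, and Lrp2 (megalin) rose by 1.13 ± 0.21 from low values; 2 of 11 went each way, and 1 each way without WT replicate 1. The mean log2 signal of the mesonephric list overlapped between the groups. In the adrenal list 2 of 7 were called lower and Mc2r alone had a positive difference; the mean log2 signal was 5.70 to 5.87 in KO and 6.10 to 6.16 in WT, while the sum was higher in KO. No skeletal muscle or liver gene was called (limma, adjusted p; 1 of 11 had an unadjusted p under 0.05), and apart from KO replicate 1, at 3962, their summed signal was 491 to 582. The difference between 3' and 5' Gapdh control probe sets was 3.81 to 4.23 in KO and 3.83 to 4.72 in WT (exact permutation test, two-sided p = 0.4). The same difference for Actb was 3.10 to 3.70 in KO and 3.69 to 3.94 in WT (exact permutation test, two-sided p = 0.2). RNA integrity alone cannot be read from these differences, since the RNA went through 2 amplification cycles. The part of RNA integrity or amplification in the results was not tested beyond the Gapdh covariate given above.

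**Figure D4:**
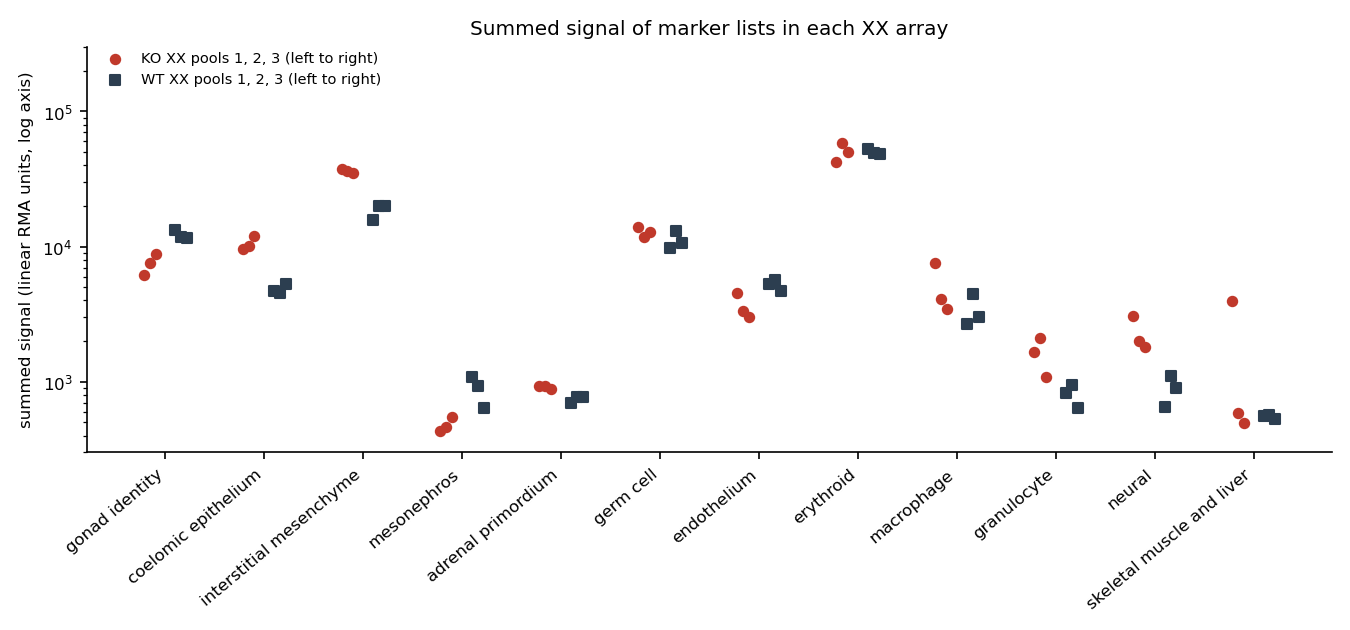
Summed linear RMA signal of the measured genes of each marker list in each XX array (log axis, red circles KO, dark squares WT, pools 1 to 3 from left to right). Gonad identity, mesonephros and endothelial genes sum lower in every KO pool, and mesenchymal, surface epithelial, adrenal, granulocyte and neural genes higher. A sum follows its brightest genes, and the mean log2 signal of the adrenal list is lower in KO. KO replicate 1 stands out in the list of muscle and liver genes at 3962.

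WT replicate 1 was often the WT array farthest from the KO pools. It was the lowest WT array for 777 of the 1510 genes called higher (51.5%, against 24.1% and 24.4% for the others) and the highest for 501 of the 983 called lower (51.0%, against 30.4% and 18.6%). With it left out, 592 genes lost their call and 341 gained one. Leaving out another XX array lost 436 to 715 and gained 103 to 334. Genes that lost the call included Sorcs1, a sorting receptor gene, at 6.06, 6.21 and 6.24 in KO and 4.25, 4.44 and 5.71 in WT; its difference was 1.37 ± 0.35, and 1.10 without the array (adjusted p = 0.0581). Agtr2, an angiotensin receptor gene, was at 7.52, 7.15 and 6.58 in KO and 5.74, 5.79 and 5.16 in WT; its difference was 1.52 ± 0.46, and 1.61 without the array (adjusted p = 0.054). Neither gene had overlapping groups, and both also lost the call without KO replicate 2 or WT replicate 2. Genes that gained the call included the endothelial genes Mmrn2 (10.67, 9.80 and 8.43 in KO and 9.50, 11.35 and 10.86 in WT) and Myct1 (6.88, 6.25 and 5.59 in KO and 6.65, 7.82 and 7.28 in WT), and the zinc finger gene Klf4 (7.57, 6.66 and 7.02 in KO and 7.11, 8.60 and 8.0 in WT), in which it lay among the KO values.

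Whether the KO effect in XX differed from that in XY was tested directly as the difference of both KO effects. These use separate arrays but share 1 estimate of each gene's spread. At adjusted p under 0.05 a single gene of 18193 passed (0.0055%), Sox9, whose effect in XX exceeded that in XY by 2.80 ± 0.26 (adjusted p = 0.000576). In XX the Sox9 signal was low in both genotypes, as given above, and in XY it was 5.70, 6.02 and 6.14 in KO and 8.56, 8.64 and 8.96 in WT. The XY WT pools alone were high, and the XX effect was 0.03 ± 0.18 beside -2.77 ± 0.18 in XY. The next smallest adjusted p was 0.391, and 1174 genes had an unadjusted p under 0.05. Without WT replicate 1 of XX, 10 genes passed. Besides Sox9, Cbln4, Map3k21, Cnga1 and Manea had the more positive effect in XX, and Dstyk, Cdh2, Tmem158, Tcf7l2 and Hoxc8 the less positive; these 9 were read off after their values were seen.

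**Figure D5:**
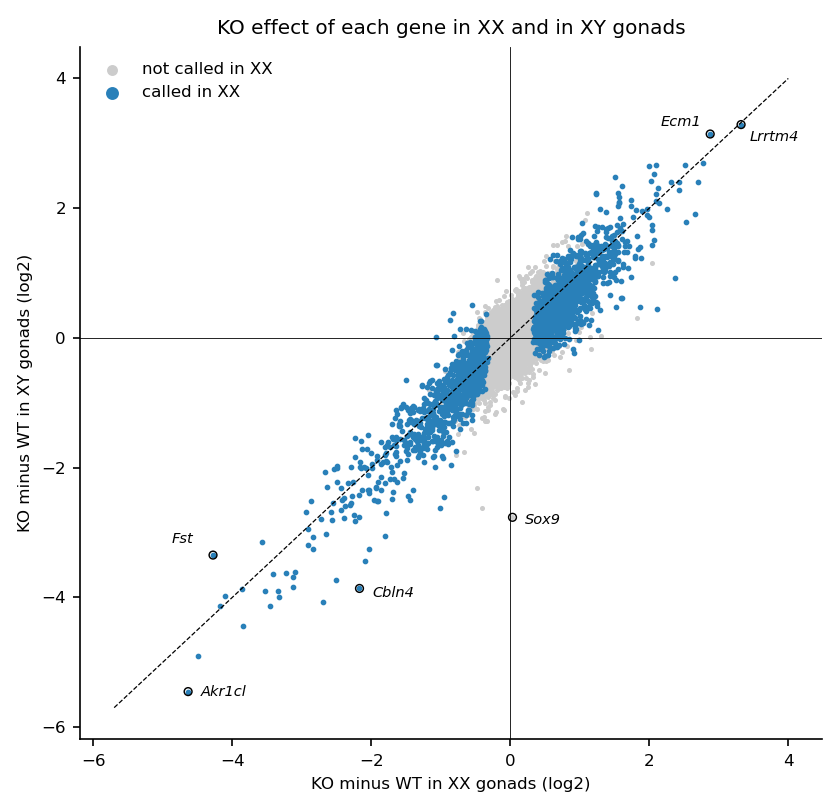
KO minus WT (log2) of each of 18193 genes in XX gonads (horizontal) and in XY gonads (vertical); blue genes were called in XX, and the dashed line marks equal effects. Of the called genes, 2399 of 2493 have the same sign in both, and Sox9, at 0.03 in XX and -2.77 in XY, lies far below it.

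Of the 2493 genes called in XX, 2399 (96.2%) had the same sign in XY. The share over all genes is not given here to set beside it. The calls common to both sexes were 1541 genes, 61.8% of the XX calls and 63.7% of the 2421 XY calls. The only one with opposite signs was Slc1a1, a glutamate transporter gene named here for that (-0.35 ± 0.11 in XX and 0.36 ± 0.11 in XY). Losses of at least 2-fold in XX were called lower in XY for 290 of 300 genes, and gains of at least 2-fold were called higher for 285 of 319. Several leading genes of XX changed in the same direction in XY: the difference there was -2.35 ± 0.16 for Nr5a1, -3.84 ± 0.18 for Gadd45g, -5.45 ± 0.24 for Akr1cl, -2.79 ± 0.11 for Wnt6, 3.14 ± 0.16 for Ecm1 and 3.29 ± 0.24 for Lrrtm4. The XX effect minus the XY effect was 0.82 ± 0.34 for Akr1cl and 0.71 ± 0.25 for Gadd45g, whose losses were larger in XY. Neither passed the test (limma, adjusted p = 0.758 and 0.751).

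Some genes called in XX, picked here after their values were seen, had smaller differences in XY. The difference of Foxl2 was -1.06 ± 0.18 in XX and -0.42 ± 0.18 in XY, that of Lgr6 0.74 ± 0.11 and 0.02 ± 0.11, and that of Wnt4 -0.53 ± 0.15 and -0.17 ± 0.15. For Zfpm2 they were 0.52 ± 0.15 and 0.01 ± 0.15, for Olfm4 2.10 ± 0.33 and 0.45 ± 0.33, and for Dazl 0.94 ± 0.23 and 0.13 ± 0.23. In none of these 6 did the difference between the sexes pass the test, with adjusted p from 0.553 to 0.758. A call in XX and none in XY is therefore not shown to be a difference between them.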

How the data were processed

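The authors deposited log2 signals of 45101 probe sets from 12 Affymetrix mouse arrays. RMA, affy and Affymetrix Expression Console are named in the submitters' processing notes (versions not given in the sources used here), and the labels state 15 ng of RNA and 2 amplification cycles. RMA draws the arrays to a common distribution, so differences are relative to the bulk of genes. From these log2 values, each of 18193 genes was represented by the single-gene probe set with the highest mean over the 12 arrays (9010 genes had several); 932 probe sets of several genes and 9160 without a gene were not used. Group means of the 4 groups were fitted to all 12 arrays with limma 3.58.1 in R 4.3.3, with Benjamini-Hochberg adjustment. The fit was also run on simulated data with independent normal noise. Those data held no outlying array or mixed tissue, so they do not check the fit for such features. The number of arrays limits the precision. No scan date or batch was given.

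The members and lists were chosen with earlier results of these data known. Named genes are the 20 largest separated calls each way without predicted genes, members of 45 role lists and 12 marker lists, members of 27 families called at 2-fold, and genes whose call turned on 1 array or on sex. Upstream sequences and gene matches are from RefSeq (GRCm38.p6). Alternatives covered arrays, normalization, probe sets, variance and thresholds.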

Additional observations from a re-analysis of the deposited data

Results flagged for a closer look

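The effect of the KO on Sox9 differed between the sexes by 2.80 on the log2 scale (XX minus XY), by a test of that difference itself (limma, adjusted p = 0.000576). Sox9 encodes the factor that directs Sertoli cell fate. The signal was 6.09, 6.79 and 6.15 in XX KO, 6.32, 6.48 and 6.14 in XX WT, 6.02, 6.14 and 5.70 in XY KO, and 8.96, 8.56 and 8.64 in XY WT. Without XX WT replicate 1 the difference was 2.80 as well (adjusted p = 0.00127).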

How the results depend on the processing

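With the 6 XX arrays fitted alone, 1532 genes were called, 930 higher and 602 lower. At an adjusted p under 0.01 there were 1330 (792 and 538), and with a 2-fold minimum as well as the usual threshold 619 (319 and 300). Over genes with a mean signal above the median of all genes, where fewer were tested, 1248 were higher and 586 lower. After a further quantile normalization there were 1224 higher and 1170 lower calls, with the mean of all probe sets 1287 and 1053, and with the Gapdh covariate 2040 and 1135. Leaving out 1 XX array at a time gave 1881 to 2391 calls, 1108 to 1460 higher and 773 to 931 lower. The XX minus XY difference was called for 0 genes over those genes and with Gapdh 3' minus 5' as a covariate, for 2 when all probe sets were tested, for 3 with array weights, and for 1 to 10 when any 1 array was left out; the 10 came without XX WT replicate 1. The cause was not tested. With the replicate number as a block, 2498 genes were called; deviations of same-numbered arrays correlated at -0.212, -0.039 and -0.148, so the numbers are not taken as pairs. Of 271 named genes called in XX, 203 kept the call under every alternative counted for single genes, 68 lost it under at least 1, and none reversed. Stricter thresholds and fits without an XY array were not counted here. Genes with a mean signal below the median were absent from the fit of the genes above it. Pools of small captures, 3 per group, and signals near the array floor limit what can be told for genes with low signal.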
